A study of Trichosurus vulpecula with 6 samples.

Results

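The tyrosinase family of melanin-producing enzymes was followed through RNA-sequencing of ear punch skin from grey and black common brushtail possums (*Trichosurus vulpecula*), a marsupial with 2 main coat colours. Its 3 genes, *TYR*, *TYRP1* and *DCT*, were chosen by name for their place in the pathway and not by any measured value. They are 3 of the 17952 possum genes to which assembled transcripts were assigned, and all 3 were among the 15530 genes tested, those with a mean of at least 1 TPM (a transcript's share of its library after correction for length). The samples were whole skin from adult females, 3 with grey and 3 with black fur, and the labels give no genotype, treatment or age in years that separates the animals further. The libraries were enriched for poly(A) RNA, kept the strand of each transcript, and were read as 120 bp single-end reads. The labels number the samples within each colour without saying in words that each came from a different animal, while the paper describes skin of 3 grey and 3 black possums. The spread between replicates is the spread between these samples. The paper also reports that the black possums expressed only the T allele of a coding variant of the agouti gene, and the grey ones C alone or both.

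Melanin is made from the amino acid tyrosine inside melanosomes, the pigment organelles of melanocytes, which hand their pigment to keratinocytes of the skin and the growing hair. *TYR* encodes tyrosinase, the rate-limiting enzyme that oxidises tyrosine towards dopaquinone. *DCT* encodes dopachrome tautomerase and *TYRP1* encodes tyrosinase-related protein 1, which act further along the branch that leads to eumelanin, the brown to black pigment. When agouti signalling protein (*ASIP*) blocks the melanocortin 1 receptor (*MC1R*), melanocytes shift towards the red to yellow pheomelanin, which needs tyrosinase but makes less use of the other two enzymes. The comparison of the colours asks whether transcripts of these enzymes differed between skin of grey and of black animals.

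The libraries held 4.17, 8.37 and 10.2 gigabases of aligned sequence in grey replicates 1 to 3 and 7.58, 8.51 and 6.47 gigabases in black replicates 1 to 3. Grey replicate 1 was the shallowest. It also stood apart in its hair genes: the summed level of 7 measured genes of the hair shaft and inner root sheath was 977 TPM there and from 24.5 to 71.4 TPM in the other libraries, with *KRT25* at 687 TPM. Black replicate 1 stood apart in skeletal muscle genes, with a sum over 10 measured genes of 3416 TPM against 7.47 to 14.7 TPM elsewhere. Genes of skin cells were measured in all 6 libraries. The basal keratinocyte gene *TP63* had 36.6 to 48.7 TPM, the desmosome gene *DSG3* 48.1 to 109 TPM and the dermal matrix gene *DCN* 720 to 2236 TPM. The collagen gene *COL1A1* varied more, from 16.8 to 354 TPM. Of 10 keratinocyte markers only 3 had assigned transcripts, and 1 of these was at 0 in black replicate 1. All 10 melanocyte markers were detected in every library.

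*TYR* (chromosome 2, 103807071 to 103975664, minus strand, assembly mTriVul1.pri) was measured at 3.44, 13.98 and 3.51 TPM in grey replicates 1, 2 and 3, and in black replicates 1, 2 and 3 its level was 5.83, 4.94 and 12.3 TPM. The libraries grey replicate 2 and black replicate 3 stood high and the other 4 libraries low, so each colour had a single high library and the colours overlapped. In bulk skin, fewer melanocytes in a punch and less of each transcript per melanocyte cannot be told apart. The TYR values rested on the equivalent of 114 to 937 reads of 120 bases in a library.

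*TYRP1* (chromosome 9, 94066691 to 94092400, plus strand) was measured at 5.24, 32.5 and 15.3 TPM in grey skin, and its black libraries had 19.0, 9.70 and 25.2 TPM. Grey replicate 2 was again the highest and black replicate 3 the next, while grey replicate 3 and black replicate 1 lay between these and the lowest libraries. The depth behind these values was 286 to 4191 reads of 120 bases.

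*DCT* (chromosome 4, 365530639 to 365572104, minus strand) was measured at 9.77, 65.5 and 11.6 TPM in grey skin, and its black libraries had 18.4, 15.0 and 61.7 TPM. The high libraries were once more grey replicate 2 and black replicate 3, with a wide gap to the other 4. The depth behind DCT was 389 to 4760 reads of 120 bases.

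**Figure D1:**
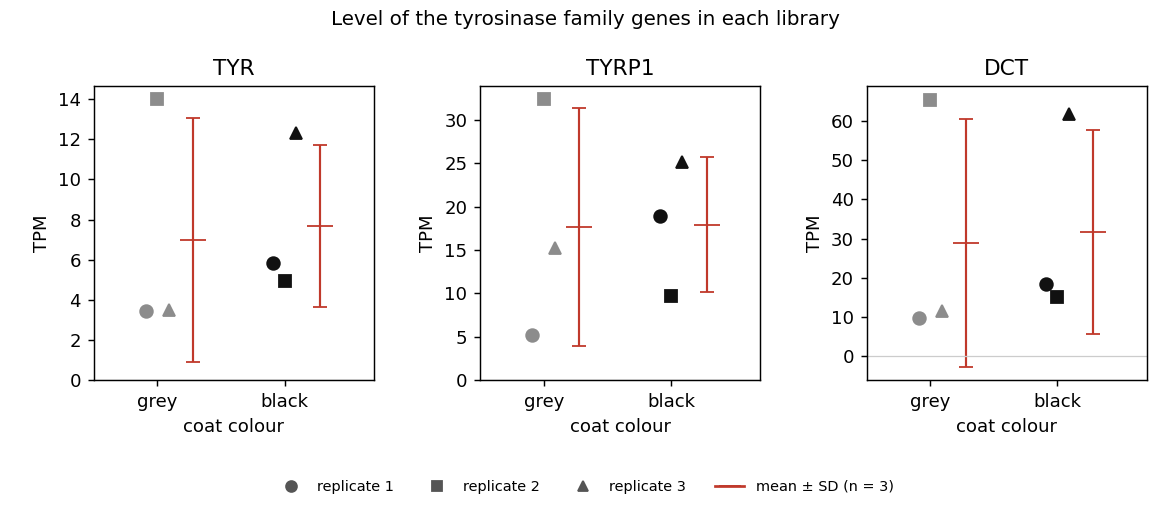
TPM of TYR, TYRP1 and DCT (vertical axes, linear and different in each panel) in grey and black possum skin. Each point is a library, with its replicate shown by the shape, and red bars are the mean ± SD of the 3 libraries of a colour. Grey replicate 2 and black replicate 3 are the highest libraries in every panel and the colours overlap in all of them. For DCT the lower bar of the grey libraries runs below 0 because their SD of 31.7 TPM exceeds their mean of 28.9 TPM.

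No difference between the colours was detected for any of the enzymes. The grey mean of *TYR* was 6.98 ± 6.07 TPM and the black mean 7.70 ± 4.03 TPM (SD, n = 3 each), a difference of 0.72 TPM (exact 2-sided permutation test, p = 0.8). The grey mean of *TYRP1* was 17.7 ± 13.8 TPM and the black mean 17.9 ± 7.78 TPM, a difference of 0.28 TPM (exact 2-sided permutation test, p = 1.0). The grey mean of *DCT* was 28.9 ± 31.7 TPM and the black mean 31.7 ± 26.0 TPM, a difference of 2.76 TPM (exact 2-sided permutation test, p = 0.7). In each case the difference was smaller than the SD within either colour. With 3 libraries against 3 this exact test has 20 assignments and cannot give a p below 0.1.

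In the limma fit over all 15530 genes, the black minus grey difference on the log2(TPM + 1) scale was 0.28 for *TYR* (SE 0.55, limma adjusted p = 1.00), 0.24 for *TYRP1* (SE 0.63) and 0.37 for *DCT* (SE 0.81), with the same adjusted p. Of the enzymes, 0 of 3 passed an adjusted p of 0.05, beside 0.0193% of all genes tested (3 of 15530). Also 0 of 3 had an unadjusted p under 0.05, beside 2.29% of all genes, and 0 of 3 had colours that did not overlap, beside 6.34%. The 95% intervals of the difference ran from −1.03 to 1.60 for TYR, from −1.26 to 1.74 for TYRP1 and from −1.56 to 2.31 for DCT. As ratios of TPM + 1, these intervals span black skin at 0.49 to 3.03 times the grey level for *TYR*, 0.42 to 3.34 times for *TYRP1* and 0.34 to 4.95 times for *DCT*. A p that missed the threshold therefore does not show that the colours were alike, since differences of those sizes in either direction lie within the intervals.

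The direction of the differences depended on single libraries. Without grey replicate 1 the differences were −0.01 for TYR, −0.40 for TYRP1 and −0.10 for DCT, and without black replicate 3 they were −0.07, −0.04 and −0.24. Without grey replicate 3 that of TYR was −0.0016. Without grey replicate 2 they were 0.86, 0.82 and 1.21. The limma adjusted p stayed at or above 0.9929 in each of these fits.

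The libraries differed far more within a colour than the colours differed from each other. The highest library had 4.07 times the level of the lowest for *TYR*, 6.19 times for *TYRP1* and 6.70 times for *DCT*, and in all 3 the highest and lowest libraries were both grey (replicates 2 and 1). Among black libraries the range was 2.49-fold for TYR, 2.59-fold for TYRP1 and 4.10-fold for DCT. The SD within colours on the log2(TPM + 1) scale was 0.84 for TYR, 0.98 for TYRP1 and 1.28 for DCT, while the median over all genes tested was 0.32. That SD was larger than that of 91.1% of the tested genes for TYR, 93.3% for TYRP1 and 95.9% for DCT. Their mean levels lay above those of 32.7% (TYR), 57.9% (TYRP1) and 72.4% (DCT) of the genes tested.

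The enzymes kept the same order of libraries within each colour. Over both colours the order differed, since grey replicate 3 lay above black replicate 2 for TYRP1 and below it for TYR and DCT. In grey skin replicate 2 was the highest, replicate 3 the next and replicate 1 the lowest for TYR, TYRP1 and DCT alike, although grey replicates 1 and 3 were close to each other for TYR and DCT. In black skin the order was replicate 3, replicate 1 and replicate 2 for all of them. Grey replicate 2 and black replicate 3 were the highest pair for 3 of 3 enzymes, beside 8.54% of all genes tested (1327 genes), a pair that was picked from the enzymes' own levels. For TYR and DCT these high libraries formed a set separate from the other 4, so no correlation over the 6 libraries was computed between the enzymes, and each colour alone has too few libraries for one.

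Summed over the family, the enzymes came to 18.5, 112 and 30.4 TPM in grey replicates 1 to 3, and black replicates 1 to 3 had 43.1, 29.7 and 99.2 TPM, a 6.07-fold range. The mean of that sum was 53.6 ± 50.9 TPM for grey and 57.3 ± 36.9 TPM for black skin (SD, n = 3 each). *TYR* was the least abundant in every library and held 11.6 to 18.6% of the sum. *DCT* was the most abundant in 4 libraries, with 50.7 to 62.2% of the sum. In grey replicate 3 *TYRP1* was the most abundant with 50.3% against 38.1% for DCT, and in black replicate 1 it was level with DCT (43.9% and 42.6%).

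Ratios within a library set the enzymes against each other without the overall pigment level. The ratio of *DCT* to *TYR* was the steadiest, at 2.84, 4.68 and 3.29 in grey replicates 1 to 3 and 3.15, 3.04 and 5.01 in black replicates 1 to 3. It spanned 1.76-fold, and its highest values fell in the libraries where both genes were high. The ratio of *TYRP1* to *TYR* was 1.52, 2.32 and 4.35 in the grey libraries and 3.25, 1.96 and 2.04 in the black libraries, a 2.85-fold range. Here grey replicate 3 stood highest and grey replicate 1 lowest. The ratio of *DCT* to *TYRP1* was 1.86, 2.02 and 0.76 in the grey libraries and 0.97, 1.55 and 2.45 in the black libraries, a 3.24-fold range. It was lowest in grey replicate 3 and fell below 1 there and in black replicate 1.

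The balance of the enzymes was also compared between the colours. The mean log2 ratio in black minus grey skin was −0.08 for TYRP1 to TYR (exact 2-sided permutation test, p = 0.9), 0.04 for DCT to TYR (exact, p = 0.8) and 0.12 for DCT to TYRP1 (exact, p = 0.8), and after adjustment over these 3 ratios every p was 0.9. With 3 libraries against 3 this test cannot give a p below 0.1, so it could not call a ratio at 0.05. The colours overlapped in all 3 ratios. The sign of each turned when some single libraries were left out. When only exons inside the transcripts were used, the differences were 0.11 for TYRP1 to TYR, 0.43 for DCT to TYR and 0.32 for DCT to TYRP1.

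**Figure D2:**
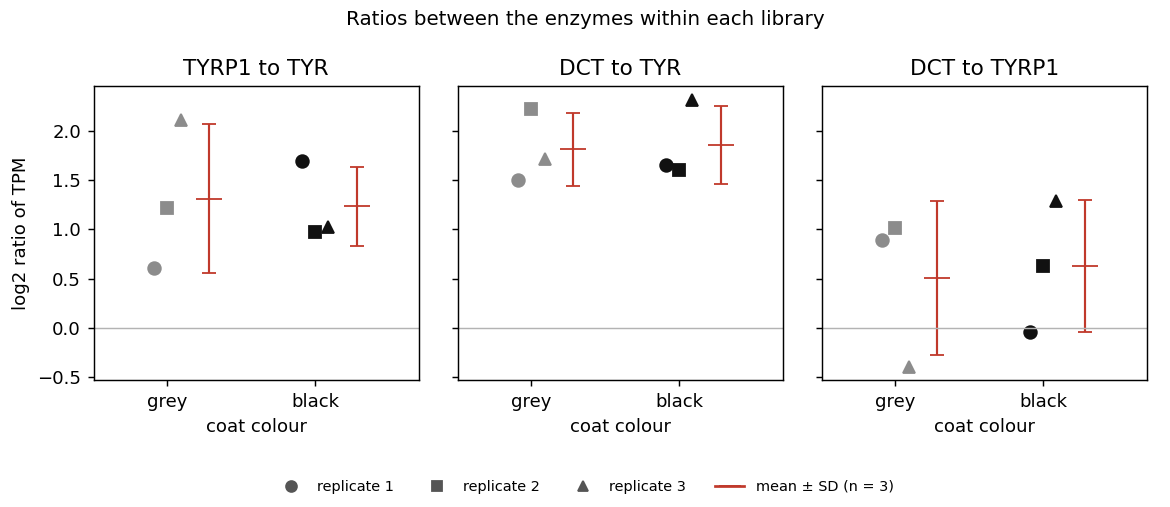
Log2 ratio of TPM between pairs of enzymes within each library (vertical axis, shared by the panels, with a line at a ratio of 1). Points are libraries, shapes mark the replicate and red bars are the mean ± SD of 3 libraries. DCT to TYR lies in the narrowest band, while DCT to TYRP1 spreads from below 0 in grey replicate 3 to 1.29 in black replicate 3.

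Each enzyme was also set against a pair of melanosome genes of the same library, *PMEL*, which builds the fibrils on which melanin is laid down, and *MLANA*, a melanosome membrane protein. *PMEL* had 18.3, 75.9 and 22.8 TPM in the grey and 55.9, 24.3 and 78.7 TPM in the black libraries. *MLANA* was measured at 25.0, 60.7 and 20.2 TPM in the grey and 46.3, 40.8 and 68.0 TPM in the black libraries. Both were highest in grey replicate 2 and black replicate 3, as the enzymes were. Relative to PMEL the mean log2 ratio was lower in black skin by −0.23 for TYR, −0.31 for TYRP1 and −0.18 for DCT, and relative to MLANA by −0.33, −0.41 and −0.29. The exact 2-sided permutation test gave p from 0.3 to 0.8 for these 6 differences (adjusted p = 0.8 over the 6). With 3 libraries against 3 it cannot give a p below 0.1, so it could not call any of them at 0.05. The colours overlapped in all 6. Leaving out black replicate 1 turned the ratios of TYR and DCT to PMEL to 0.03 and 0.18, and leaving out grey replicate 2 turned those of DCT to PMEL and to MLANA to 0.06 and 0.11. Without grey replicate 3 the difference for TYRP1 to PMEL was 0.0050.

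The assembled transcripts gave each enzyme a single common exon chain, found with the same introns in 6 of 6 libraries. For *TYR* the chain had 5 exons on the minus strand of chromosome 2. Exon 1 ran from 103974846 to an end between 103975674 and 103975711, exon 2 from 103952511 to 103952727 (217 nt), exon 3 from 103917543 to 103917690 (148 nt) and exon 4 from 103835260 to 103835441 (182 nt). Exon 5 ended at 103807297 and reached 103806671 at its farthest, which is 400 nt beyond the RefSeq gene. The introns of TYR were long, from 22118 to 82101 nt, and intron 3 was the longest.

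The *TYRP1* chain had 8 exons on the plus strand of chromosome 9 and the *DCT* chain had 8 exons on the minus strand of chromosome 4. In TYRP1 the first assembled exon ended at 94066120 and began up to 740 nt before the RefSeq gene, so it lay wholly upstream of that gene model. The last TYRP1 exon began at 94092195 and reached up to 1929 nt past the RefSeq end. Its introns measured 452 to 8804 nt. In DCT the first exon was joined to exon 2 (365556500 to 365556799, 300 nt) by the longest intron of the gene (14995 nt), and exons 3 and 4 were separated by the shortest (171 nt). The last DCT exon reached up to 546 nt past the RefSeq gene. The annotation used here gives gene spans without exons or coding parts, so exons could not be divided into coding sequence and UTR.

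Transcripts outside the common chain held a small share of each gene's TPM. *TYR* had 12 assembled transcripts over the 6 libraries, of which 6 departed from the chain, and these made up 7.78% of TYR TPM in grey replicate 2, 6.25, 7.42 and 5.72% in black replicates 1, 2 and 3, and 0% in grey replicates 1 and 3. *TYRP1* had 8 transcripts with 2 departures, at 3.73% of its TPM in grey replicate 2 and 5.72% in black replicate 2. *DCT* had 11 transcripts with 5 departures, at 10.1 and 5.49% in grey replicates 2 and 3 and 7.39, 3.88 and 14.5% in black replicates 1, 2 and 3. Grey replicate 1, the shallowest library with the lowest level of each enzyme, held no such transcript for any of the 3 genes. A form that was not assembled in a library is not shown to be absent from it.

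**Figure D3:**
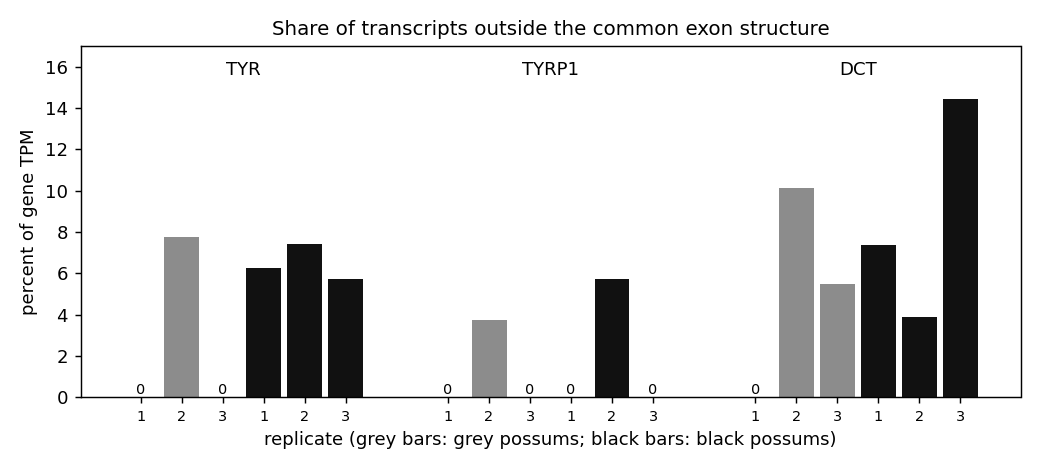
Share of each gene's TPM (vertical axis, percent) in transcripts whose introns differ from the common exon chain, by replicate, with grey bars for grey and black bars for black possums and 0 where no such transcript was assembled. The highest bar is DCT in black replicate 3 at 14.5%, and grey replicate 1 has none for any gene.

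The most abundant of these forms was a *DCT* transcript that joined exon 1 to exon 3 and left out the 300 nt of exon 2, a length divisible by 3. It held 10.1 and 5.49% of DCT TPM in grey replicates 2 and 3 and 7.39 and 14.5% in black replicates 1 and 3, with 421.5 reads of 120 bases in grey replicate 2 and 461.7 in black replicate 3, and was not assembled in grey replicate 1 or black replicate 2. Its share was highest in the libraries where DCT itself was highest. The transcripts counted here did not all have the same first exon. In grey replicate 3 and black replicate 1 it began farther upstream, at 365572554 and 365572517, while the common chain began at 365572204 at its farthest. In grey replicate 2 and black replicate 3 it began where the common chain of that library did. To compare the colours, libraries without the assembled form were counted as having none of it. The mean share of the form was then 5.21 ± 5.08% in grey and 7.28 ± 7.23% in black skin (SD, n = 3 each). The difference was 2.07 percentage points (exact 2-sided permutation test, p = 0.8). A library without the assembled form gives no measured share, so this test cannot decide whether the colours differed. Black replicate 2 instead had a DCT transcript without exon 7 (202 nt), at 3.88% of DCT TPM.

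In *TYR* the same extra exons were assembled in more than a single library. An exon of 94 nt between exons 1 and 2 (103962447 to 103962540) was present in grey replicate 2, and black replicate 3 held it with an end at 103962542 as the first exon of a shorter transcript. An exon between exons 3 and 4 (103905621 to 103905712, 92 nt) was assembled in black replicate 1, and black replicate 3 held a shorter first exon with the same start. A last exon lay downstream of the RefSeq gene in grey replicate 2 and black replicate 2, ending at 103802132 and starting at 103801761 and 103801854. These exons rested on little sequence, from 62 bases of coverage in a transcript of grey replicate 2 to 1512 bases for the downstream exon of the same library. The TYR transcripts that carried them each had 0.31 to 0.66 TPM.

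In *TYRP1*, grey replicate 2 had a transcript that stopped in an alternative last exon of 525 nt (94085246 to 94085770) within intron 6, at 1.21 TPM and with a mean exon coverage of 10.4. Black replicate 2 had a transcript with an alternative first exon of 94 nt (94066172 to 94066265) and without exon 4, at 0.55 TPM, whose first exon was covered by 94 bases of sequence.

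Coverage along the exons had a shape of its own for each gene. *DCT* was covered evenly, with the last exon at 0.85 to 1.05 times and the first exon at 0.92 to 1.22 times the mean of the internal exons. *TYR* varied more, with 0.62 to 1.43 times in the last and 0.67 to 1.36 times in the first exon. In *TYRP1* both ends were thinner in every library, at 0.39 to 0.68 times in the last and 0.30 to 0.80 times in the first exon. The fifth of the TYRP1 exons (94079823 to 94079990, 168 nt) had the lowest coverage of the 6 internal exons in 6 of 6 libraries. Relative to the mean of exons 4 and 6, its coverage was 0.40, 0.59 and 0.61 in grey replicates 1 to 3 and 0.55, 0.44 and 0.58 in black replicates 1 to 3. No assembled transcript joined exon 4 to exon 6, so that lower coverage had no matching transcript without exon 5.

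**Figure D4:**
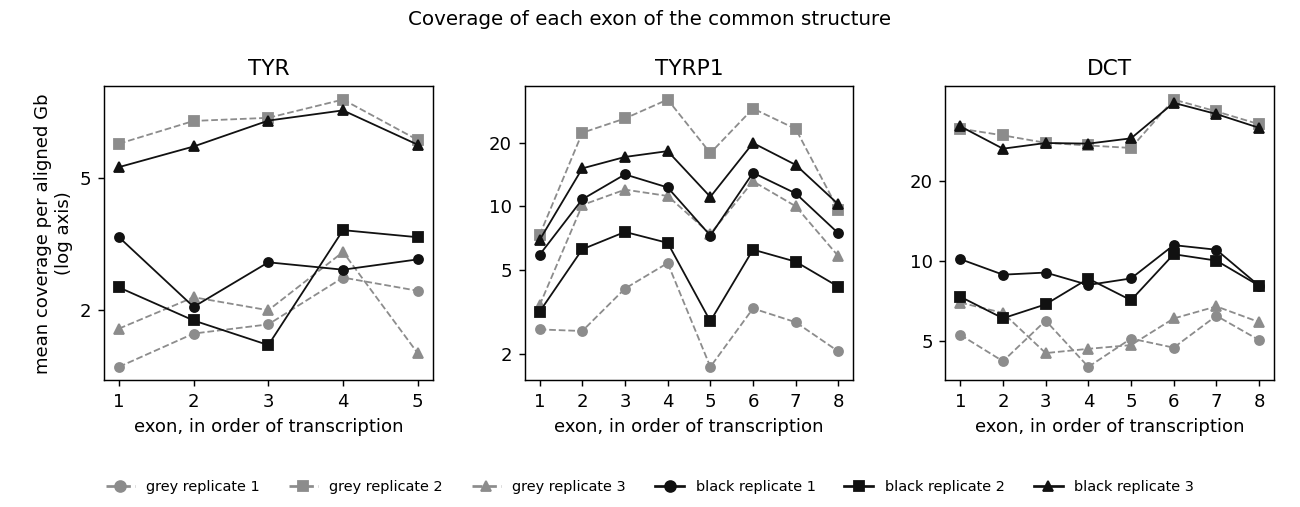
Mean coverage of each exon of the common chain per aligned gigabase (vertical axes, log scale, different in each panel) against exon number in the order of transcription, for 3 grey libraries (dashed) and 3 black libraries (solid). Grey replicate 2 and black replicate 3 lie above the others along the whole of TYR and DCT, and every line for TYRP1 dips at exon 5.

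Since the assembled ends moved the transcript lengths (1854 to 2022 nt for the common TYR chain, 3043 to 3825 nt for TYRP1 and 2123 to 2223 nt for DCT), the levels were also read from the internal exons alone, which are the same in every library. Mean internal coverage per aligned gigabase was 1.99, 7.86 and 2.40 for *TYR* in the grey libraries and 2.44, 2.31 and 7.14 in the black libraries. For *TYRP1* it was 3.30, 24.7 and 10.7 in the grey and 11.8, 6.16 and 16.1 in the black libraries. For *DCT* it was 4.94, 31.2 and 5.73 in the grey and 9.47, 8.03 and 30.5 in the black libraries. On this measure too grey replicate 2 and black replicate 3 were the highest, and the order of libraries within each colour was the same as in TPM. The black minus grey difference in mean log2 coverage, without a pseudocount, was 0.034 for TYR, 0.14 for TYRP1 and 0.46 for DCT.

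Other genes of the pigment cell were described by fixed lists. In the list of melanocyte markers and melanosome genes, 16 of 16 genes were tested, 0 passed the limma adjusted threshold (0.0193% of all genes tested) and 1 had an unadjusted p under 0.05 (2.29% of all genes tested). Their median black minus grey difference was 0.077 on the log2(TPM + 1) scale, beside 0.037 over all genes tested. For 5 of the 16, beside 8.54% of all genes tested, the highest pair was grey replicate 2 and black replicate 3, namely *PMEL*, *MLANA*, the melanosomal receptor gene *GPR143*, and the melanosome ion and solute transporter genes *SLC45A2* and *SLC24A5*. *GPR143* had 1.90, 10.2 and 2.34 TPM in the grey and 3.88, 2.30 and 5.78 TPM in the black libraries, a range of 5.38-fold. Other melanosome genes did not have these as their highest pair, such as *OCA2*, which controls melanosome pH, with 5.03, 3.04 and 1.29 TPM in the grey and 4.26, 1.71 and 4.79 TPM in the black libraries.

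The colours did not overlap for 2 of these 16 genes, both higher in black skin, beside 4.07% of all genes tested in that direction. *TRPM1*, a cation channel gene of melanocytes, stood at 0, 1.17 and 0.81 TPM in the listings of the grey libraries against 2.51, 2.15 and 4.02 TPM in the black libraries (difference 1.27, SE 0.41, limma adjusted p = 1.00). *MREG*, which encodes the organelle-sorting protein melanoregulin, had 21.0, 29.7 and 26.4 TPM in the grey and 32.4, 33.4 and 37.9 TPM in the black libraries (difference 0.42, SE 0.18, limma adjusted p = 1.00). The third of the genes with the smallest p in this list was *MLANA* (difference 0.67, SE 0.42). None of these passed the test after adjustment.

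Among melanocyte regulators and receptors, 14 of 16 genes were tested and the median difference was 0.014. Of these, 0 were called by limma, beside 0.0193% of all genes tested, and 1 had an unadjusted p under 0.05, beside 2.29%. *MITF*, the transcription factor that switches on the tyrosinase family genes, varied little, at 10.4, 9.75 and 9.49 TPM in the grey and 12.2, 10.2 and 11.97 TPM in the black libraries. Its highest library had 1.29 times the level of its lowest, where *TYR* spanned 4.07-fold. *SOX10*, a transcription factor of the neural crest lineage that acts upstream of MITF, was the only gene of the list whose colours did not overlap, at 9.31, 9.67 and 10.7 TPM in the grey and 5.91, 7.80 and 6.11 TPM in the black libraries (difference −0.52, SE 0.19, limma adjusted p = 1.00), beside 2.27% of all genes lower in black skin without overlap. *EDNRB*, the endothelin receptor of melanocytes, and *ZEB2*, a transcription factor, had grey replicate 2 and black replicate 3 as their highest pair. *KIT*, the receptor for stem cell factor, had 6.29, 7.02 and 4.08 TPM in the grey and 4.23, 4.71 and 6.01 TPM in the black libraries. *LEF1* (difference −0.64, SE 0.45) and *ERBB3* (difference −0.30, SE 0.24) came next to SOX10 in p. For *MC1R*, the melanocortin receptor, no transcript was assigned in any of the 6 libraries, and *IRF4* was below the filter. A single-exon fragment that covers only part of a gene can go unassigned under the rule used, so MC1R is not shown to be without signal.

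**Figure D5:**
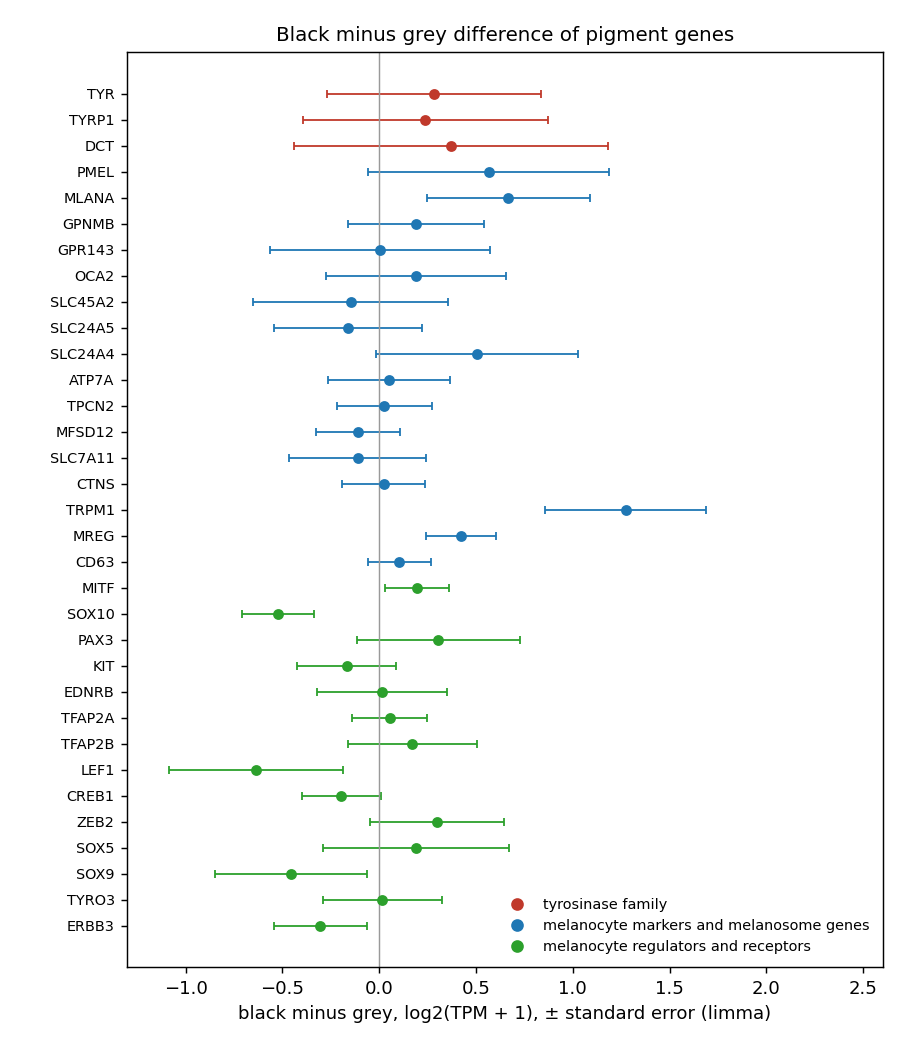
Black minus grey difference on the log2(TPM + 1) scale (horizontal axis) of the tyrosinase family genes (red), 16 melanocyte marker and melanosome genes (blue) and 14 melanocyte regulators and receptors (green), with bars of ± 1 limma standard error. The bars of TYR, TYRP1 and DCT cross 0, and TRPM1 lies farthest to the right at 1.27.

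Of the agouti and melanocortin pathway and the ligands that act on melanocytes, 13 of 18 genes were tested, 0 were called by limma (0.0193% of all genes), 0 had an unadjusted p under 0.05 (2.29% of all genes), and the median difference was 0.044. *ASIP* was measured at 3.88, 1.65 and 0.41 TPM in the grey and 4.05, 2.28 and 1.39 TPM in the black libraries, and its highest libraries were not those of the enzymes. For 0 of the 13 genes were grey replicate 2 and black replicate 3 the highest pair. The colours did not overlap for *HGF* and *PRKACB*, higher in black skin, and for the Wnt inhibitor gene *DKK1*, lower in black skin, which makes 2 and 1 of 13 genes beside 4.07 and 2.27% of all genes tested in those directions. The genes of smallest p were *HGF*, a growth factor for melanocytes (difference 0.62, SE 0.26), *ATRN*, which is needed for agouti signalling (difference −0.43, SE 0.20), and *DKK1* (difference −0.77, SE 0.44).

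Genes that supply tyrosine or handle dopa were described next. Of 15 genes 11 were tested and the median difference was −0.043. Of the 11, 0 were called by limma, 0 had an unadjusted p under 0.05 and 0 had colours that did not overlap, beside 0.0193, 2.29 and 6.34% of all genes tested. *SLC3A2*, a partner chain of amino acid transporters (difference −0.63, SE 0.37), *PCBD1*, which recycles a pterin cofactor (difference 0.36, SE 0.29), and *SLC16A10*, an aromatic amino acid transporter gene (difference −0.33, SE 0.29), had the smallest p. *TH*, the tyrosine hydroxylase of nerve cells, was listed at 0 in all 6 libraries. In the list of genes that sort the tyrosinase proteins to melanosomes, 26 of 27 were tested, 0 were called by limma (0.0193% of all genes), 1 had an unadjusted p under 0.05 (2.29% of all genes), and the median difference was 0.093. *BLOC1S1*, a subunit of the sorting complex BLOC-1, was lower without overlap at 32.7, 20.2 and 49.6 TPM in the grey and 16.6, 18.4 and 15.5 TPM in the black libraries (difference −0.89, SE 0.32, limma adjusted p = 1.00). *HPS1* (difference 0.51, SE 0.27), of a complex that activates RABs on melanosomes, was higher without overlap, and these make 1 lower and 1 higher gene of 26, beside 2.27 and 4.07% of all genes tested. *BLOC1S3* had the third smallest p (difference 0.29, SE 0.19). Grey replicate 2 and black replicate 3 were the highest pair for *AP3B1*, *AP3M1*, *AP1S1* and *CALR* of these 26 genes, beside 8.54% of all genes.

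The genes whose levels were most like those of the enzymes over the 6 libraries were named by Pearson's r of log2(TPM + 1), as a description that rests largely on grey replicate 2 and black replicate 3. For *TYR* these were *LACTB2* (r = 0.998), *KRBA2* (0.997) and *SRP72* (0.993), and for *DCT* the same genes came as *KRBA2* (0.996), *SRP72* (0.993) and *LACTB2* (0.991). For *TYRP1* they were *BACH1* (0.978), *ARGLU1* (0.975) and *NUB1* (0.967). *KRBA2* spanned nearly the range of TYR, at 2.53, 9.86 and 2.52 TPM in the grey and 3.97, 3.16 and 8.62 TPM in the black libraries. *SRP72* had nearly the same pattern over only a 1.19-fold range, and *LACTB2* over a 1.55-fold range. Most like the mean of the enzymes were *CLTC* (0.987), *OLFM1* (0.985), *LACTB2* (0.983), *KRBA2* (0.978), *PKD1L1* (0.975) and *AGTPBP1* (0.972). These were the highest of 15530 genes ranked on only 6 libraries, and no test was attached to them.

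Markers of skin cell types were summed in each library and set beside the enzymes. The melanocyte markers, which do not include the enzymes, came to 91.4, 198 and 79.5 TPM in the grey and 145, 101 and 201 TPM in the black libraries, with 10 of 10 markers measured and none at 0, so the sum was highest in grey replicate 2 and black replicate 3 as the enzymes were. *PMEL* and *MLANA* made up most of the sum in those libraries, at 75.9 and 60.7 TPM in grey replicate 2 and 78.7 and 68.0 TPM in black replicate 3. *GPR143*, *SLC45A2*, *SLC24A5* and *EDNRB* had the same highest pair, while *MITF*, *SOX10*, *OCA2* and *KIT* did not. The Schwann cell markers (10 of 11 measured) ranged from 203 to 681 TPM in grey, highest in replicate 1, and from 274 to 464 TPM in black skin. Keratinocyte markers (3 of 10 measured) ranged from 99.7 to 172 TPM in grey and 91.7 to 108 TPM in black skin. Fibroblast markers (7 of 8) ranged from 1199 to 4304 TPM in grey and 2733 to 3669 TPM in black skin, and endothelial markers (8 of 8) from 186 to 257 TPM and from 201 to 255 TPM. Macrophage markers (10 of 10) ranged from 407 to 485 TPM in grey and from 391 to 800 TPM in black skin, highest in black replicate 3. The part of the number of melanocytes, of the hair genes of grey replicate 1 and of the macrophage markers of black replicate 3 in the levels of the enzymes was not tested.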

How the data were processed

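The authors trimmed reads with Trim Galore 0.6.10 and mapped them with HISAT2 2.2.1. They took out amplicon reads of the opposite strand that shared an index. Each library was assembled on its own with StringTie 2.2.0 guided by an annotation. The deposited files hold a coverage signal for exons and, for each transcript, its coverage, FPKM and TPM, but no read counts. TPM was summed per gene. Transcripts were assigned by exon overlap with RefSeq genes, whose strand and exons were inferred from transcripts matching a span (joint overlap of at least 0.5, or 80% inside), or by reference gene name (231837 of 274079 assigned). Reads equal bases of coverage divided by 120, and aligned gigabases come from coverage over FPKM.

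limma 3.58.1 (R 4.3.3) with a variance trend was fitted to log2(TPM + 1), which understates changes of low genes, with Benjamini-Hochberg adjustment. On simulated data with 200 changed genes, the fit recovered 0% of 2-fold, 66.1% of 4-fold and 88.6% of 16-fold changes. The mean number of false calls was 0, 5.6 and 10.2. A count of 0 called genes therefore does not exclude 2-fold differences. Exact permutation covered single values. A correlation between the enzymes was planned and not computed. Pseudocounts, filters, scalings, variance models and exon sets were varied, and single libraries left out. Named genes were the enzymes, 3 genes of smallest p per list, melanocyte genes and marker lists set beside the enzymes, and the genes of highest r. ASIP, PRKACB, TH, AP3B1, AP3M1, AP1S1, CALR and the skin and hair genes were named after their values were seen. The genes and lists were chosen with earlier results of these data known. Python 3.11.15 and matplotlib 3.10.9 made the plots. No sequence of these genes was used here.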

Additional observations from a re-analysis of the deposited data

Results flagged for a closer look

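A single-exon transcript was assembled on the plus strand inside intron 1 of TYR (chromosome 2, 103965508 to 103965755, 248 nt), opposite to the strand of TYR, in grey replicate 1 at 4.37 TPM. It was singled out as a signal outside the levels compared above, since it was assigned to none of the enzymes. Its mean coverage was 9.40, which equals 19.4 reads of 120 bases, and no such transcript was assembled in the other 5 libraries. In the same library TYR itself had 3.44 TPM. The paper reports that amplicon reads of the opposite strand had contaminated the data and were removed. Whether any such reads remained in this transcript was not tested.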

How the results depend on the processing

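Over all genes limma called 3 of 15530 (356 with an unadjusted p under 0.05), against 6 of 12933 with coverage over a fixed exon set (2 higher and 4 lower in black skin, beside 2 and 1), 4 without a variance trend, 2 with a pseudocount of 0.1 and with transcripts of several exons, 1 among genes averaging 5 TPM or more, 0 under a replicate block (354 unadjusted) and 0 to 3 when single libraries were left out, with 0 without grey replicate 2 (514 unadjusted) and without black replicate 3 (308 unadjusted). The labels name no pairing by replicate number. Deviations of same-numbered libraries correlated at −0.0191, 0.0058 and −0.0584, and those of differently numbered libraries at −0.026 to 0.0419. These values cannot show whether same-numbered samples shared a step of collection or preparation. Each replicate number has a grey and a black library, so the replicate block cannot change the log2 differences. They stayed at 0.28 for TYR, 0.24 for TYRP1 and 0.37 for DCT, and no enzyme was called with the block.

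Leaving out single libraries moved the black minus grey difference from −0.072 to 0.86 for TYR, −0.40 to 0.82 for TYRP1 and −0.24 to 1.21 for DCT. It moved the log2 ratio of TYRP1 to TYR from −0.43 to 0.32, of DCT to TYR from −0.19 to 0.25 and of DCT to TYRP1 from −0.33 to 0.46. Against PMEL the ranges were −0.45 to 0.031 for TYR, −0.61 to 0.0050 for TYRP1 and −0.45 to 0.18 for DCT, and against MLANA −0.51 to −0.14, −0.94 to −0.019 and −0.70 to 0.11. With coverage of internal exons the log2 ratio was 0.11 for TYRP1 to TYR, 0.43 for DCT to TYR and 0.32 for DCT to TYRP1. This alternative was chosen after seeing the data, as were those on exons in the counts over all genes. The cause of these shifts was not tested. The lists had 0 called genes in each of these fits.

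Of 143 other recalculations (pseudocounts, filters, scalings, FPKM, variance models, exon sets, transcripts with several exons), 139 kept direction and call, where a count of called genes was held as kept within 1.5 times. The filters, the fit without a variance trend, the replicate block and transcripts with several exons left each enzyme's difference unchanged. These settings therefore did not test its direction. The replicate block and transcripts with several exons left each ratio unchanged as well. The 139 also include the counts of called genes in the lists, which were 0 in each fit. The total of 139 therefore does not measure how firm the directions are. Leaving out single libraries, not counted here, reversed the direction in 3 of 6 fits for TYR and in 2 of 6 for TYRP1 and for DCT. The enzymes' differences ran from 0.034 to 0.35 for TYR, 0.079 to 0.27 for TYRP1 and 0.18 to 0.46 for DCT. The 0.034 of TYR and the 0.46 of DCT came from log2 coverage of internal exons, which is not on the log2(TPM + 1) scale. No value came from assignment by reference gene name alone, since no transcript carries these names, and other settings for correlations between the enzymes were not run.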
